A study of Mus musculus with 20 samples.

Results

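Genes of fatty acid oxidation and of the carnitine shuttle were described in the hippocampus of aged mice that carry a human APOE allele. The genes were chosen by name and function: 39 genes of carnitine transport, mitochondrial and peroxisomal β-oxidation and their regulators were listed. Of these, 38 had a row in the table and all 38 passed the filter on low counts, out of 21724 genes that passed it and 33119 in the table. Eci1 is not analysed here. RNA of the whole hippocampus was sequenced from 20 mice aged 16 months, 5 for each of the 4 combinations of allele (hAPOE3 or hAPOE4) and sex. All the mice were on a C57BL/6 background and homozygous for a targeted replacement that puts human APOE3 or APOE4 in place of the mouse gene's coding part, in the controls (hAPOE3) as well as in hAPOE4 mice. Each mouse was perfused with buffered saline and its hippocampus dissected from the cortex, and each library came from 1 mouse.

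Fatty acids are activated to acyl-CoA by synthetases on cell membranes, and long chains cross the inner mitochondrial membrane only as carnitine esters. Cpt1 forms the ester, Slc25a20 exchanges it across the membrane and Cpt2 turns it back into acyl-CoA, while Slc22a5 brings carnitine into the cell. In the matrix each turn of β-oxidation passes through an acyl-CoA dehydrogenase, a hydratase, a hydroxyacyl-CoA dehydrogenase and a thiolase, and electrons leave through the electron transfer flavoprotein. Peroxisomes run a related pathway for very long and branched chains. In brain the pathway is best known from astrocytes and from epithelia such as the choroid plexus, and neurons are thought to use it little.

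Between 35778879 and 52520279 estimated counts were assigned per mouse. Levels are given below as CPM, counts scaled to a common library size after TMM normalization, and per kilobase of merged exons only where genes are compared with each other. Xist and the Y-linked gene Ddx3y matched the labelled sex in 20 of 20 mice. The mouse Apoe gene, whose coding part is replaced in every group, had between 37.4 and 98.9 CPM. All 10 lists of cell type markers were detected, with no marker at 0 in every mouse, and the 8 hippocampal neuron markers summed to between 557 and 1176 CPM. Oligodendrocyte markers stood highest in 2 males, 13604 CPM in the hAPOE3 male S158 and 9901 CPM in the hAPOE4 male S176, against at most 6653 CPM in the other mice. In bulk tissue fewer cells of a type and less RNA per cell cannot be told apart.

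The choroid plexus lies against the hippocampus in the ventricle, and Ttr, its secreted transthyretin, differed widely between dissections. Ttr had 3430, 1225, 37.3, 2531 and 3668 CPM in hAPOE3 females and 4229, 5607, 5906, 440 and 66.6 CPM in hAPOE4 females. It had 43.4, 45.8, 89.4, 2278 and 3161 CPM in hAPOE3 males and 70.2, 94.7, 2570, 115 and 719 CPM in hAPOE4 males. Every group held mice with high and with low Ttr, and the groups overlapped. The median of the 20 mice, 972 CPM, was exceeded in 4 of 5 hAPOE3 females, 3 of 5 hAPOE4 females, 2 of 5 hAPOE3 males and 1 of 5 hAPOE4 males. The difference between the sexes averaged over the genotypes was 1.57 ± 0.93 log2 units (SE, edgeR adjusted p = 0.602). The other 14 choroid plexus markers were detected as well, and 0 of 15 passed the threshold in any of 7 comparisons. Each member was therefore set against Ttr within the groups, as described further on.

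The promoters of 5 members are shown because these genes were among the 4 with the smallest p for a relation to Ttr (Cpt2, Slc22a5, Hadh) or joined such a relation to a nuclear receptor motif (Acadvl, Cpt1a). The sequences are those of RefSeq on GRCm38.p6, from 250 bases before to 50 bases after the gene's start, in the direction of transcription. The promoter of Acaa2, the first of the 4, is not shown. The 5 lie at chr4:107923540-107923839 (minus strand), chr11:53891654-53891953 (minus strand), chr3:131272052-131272351 (minus strand), chr11:70015379-70015678 (minus strand) and chr19:3323051-3323350 (plus strand). Capitals mark AGGTCA, the repeated core of the element that PPARα and related receptors bind, and the GC box GGGCGG, each on either strand (TGACCT and CCGCCC on the other).
Cpt2: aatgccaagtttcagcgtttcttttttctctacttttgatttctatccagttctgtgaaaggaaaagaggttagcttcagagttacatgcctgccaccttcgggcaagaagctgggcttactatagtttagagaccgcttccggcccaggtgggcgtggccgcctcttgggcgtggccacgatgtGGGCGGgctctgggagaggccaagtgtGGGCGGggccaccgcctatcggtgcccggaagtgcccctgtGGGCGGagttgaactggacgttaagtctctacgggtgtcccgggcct
Slc22a5: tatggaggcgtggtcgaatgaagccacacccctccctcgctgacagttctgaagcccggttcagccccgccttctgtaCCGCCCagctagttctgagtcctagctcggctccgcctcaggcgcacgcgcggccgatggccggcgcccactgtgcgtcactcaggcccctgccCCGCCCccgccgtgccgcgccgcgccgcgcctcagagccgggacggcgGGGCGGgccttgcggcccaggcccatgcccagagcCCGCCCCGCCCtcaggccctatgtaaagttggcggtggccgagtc
Hadh: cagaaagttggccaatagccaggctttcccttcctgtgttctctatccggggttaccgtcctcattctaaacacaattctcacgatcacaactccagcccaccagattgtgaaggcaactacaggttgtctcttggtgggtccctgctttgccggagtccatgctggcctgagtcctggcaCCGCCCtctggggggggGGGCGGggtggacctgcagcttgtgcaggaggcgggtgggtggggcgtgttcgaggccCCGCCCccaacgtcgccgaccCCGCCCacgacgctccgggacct
Acadvl: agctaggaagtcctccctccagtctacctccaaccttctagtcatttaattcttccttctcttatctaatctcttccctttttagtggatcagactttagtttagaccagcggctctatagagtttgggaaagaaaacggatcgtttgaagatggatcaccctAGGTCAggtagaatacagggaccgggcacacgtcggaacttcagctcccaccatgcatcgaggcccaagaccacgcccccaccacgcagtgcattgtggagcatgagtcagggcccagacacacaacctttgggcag
Cpt1a: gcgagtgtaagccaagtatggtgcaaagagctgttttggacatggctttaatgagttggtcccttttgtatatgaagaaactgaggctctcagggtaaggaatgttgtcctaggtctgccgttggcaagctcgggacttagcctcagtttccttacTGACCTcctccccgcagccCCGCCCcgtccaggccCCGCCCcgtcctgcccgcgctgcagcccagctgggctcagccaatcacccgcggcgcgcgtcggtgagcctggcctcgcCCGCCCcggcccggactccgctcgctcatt

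A promoter was found for 32 of the 38 members. The receptor motif occurred in 6 of the 32 (18.8%), against 18.1% of the 27025 genes with a promoter. The GC box occurred in 27 of the 32 (84.4%), against 38.2% of those genes. Cpt2, Slc22a5 and Hadh held GC boxes and no receptor motif, Acadvl a receptor motif and no GC box, and Cpt1a both. The other members with the receptor motif were Acadm, Acsl6, Cpt1c and Echs1. These are matches of letters and not measured binding sites.

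Levels spanned a 72.6-fold range between members. Acsl3, a long-chain acyl-CoA synthetase, had the highest level with 43.7 ± 6.98 CPM per kb (SD, n = 20), and Ppara, the nuclear receptor that drives oxidation genes in liver, the lowest with 0.602 ± 0.215 CPM per kb. Above 10 CPM per kb were 15 members and under 1 CPM per kb were 3. The length used was that of the merged exons of all annotated transcripts, so it bears on the order between genes. In CPM alone Acsl6 (mean 227) stood above Acsl3 (mean 191). All 38 were well covered, with at least 43 counts in every mouse.

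**Figure D1:**
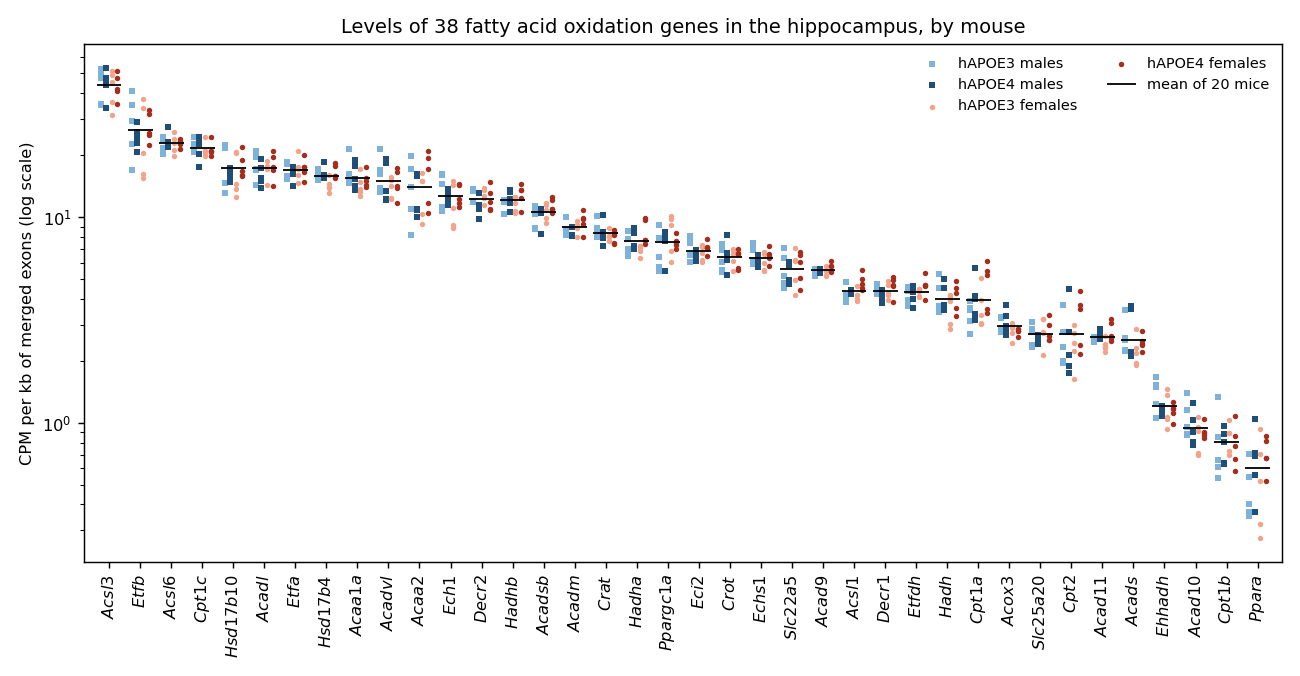
Level of each of 38 genes in each mouse, as CPM per kb of merged exons on a log axis, ordered by the mean of 20 mice (black lines). Squares are males and circles females, pale for hAPOE3 and dark for hAPOE4, and the means run from 43.7 for Acsl3 to 0.602 for Ppara.

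Among the carnitine palmitoyltransferases the brain form Cpt1c, which sits in the endoplasmic reticulum and has little transferase activity, had 21.7 ± 1.93 CPM per kb. Cpt1a, the liver form on the mitochondrial outer membrane, had 3.97 ± 0.991 CPM per kb, and the muscle form Cpt1b had 0.806 ± 0.197 CPM per kb. The 3 ranges over mice did not overlap, from 17.4 to 24.6 for Cpt1c, 2.70 to 6.13 for Cpt1a and 0.540 to 1.33 for Cpt1b. Cpt2, the inner membrane enzyme, had 2.70 ± 0.851 CPM per kb, the carnitine-acylcarnitine carrier Slc25a20 had 2.71 ± 0.319 and the carnitine transporter Slc22a5 had 5.59 ± 0.916. Crat and Crot, which make acetylcarnitine and medium-chain carnitine esters, had 8.33 ± 0.787 and 6.38 ± 0.768 CPM per kb.

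Among the dehydrogenases the long-chain enzymes Acadl (17.2 ± 2.17 CPM per kb) and Acadvl (15.02 ± 2.66) stood above the medium-chain Acadm (8.93 ± 0.789) and the short-chain Acads (2.52 ± 0.521). In CPM alone Acadl (34.6) and Acadm (34.9) had similar means, with merged exons of 2.005 and 3.913 kb. The trifunctional protein subunits Hadha and Hadhb had 7.62 ± 1.00 and 12.1 ± 1.179 CPM per kb, and the mitochondrial thiolase Acaa2 had 14.0 ± 3.85. Etfb, the β subunit of the electron transfer flavoprotein, had 26.5 ± 7.22 CPM per kb against 17.0 ± 1.69 for Etfa. In CPM alone Etfb (30.9) and Etfa (31.2) had similar means. Peroxisomal Hsd17b4 and Acaa1a had 15.8 ± 1.38 and 15.5 ± 2.12, and Ehhadh, the other peroxisomal bifunctional enzyme, had 1.21 ± 0.194. Acaa1a has a near-identical neighbour, Acaa1b, so the split of reads between them is uncertain. Exons of 14 members overlap those of another gene, and the libraries' strand is not given in the sources used here. Among them, Etfb shares 617 of its 1164 exon bases with Gm45233 on the same strand. Acadvl shares 1151 of its 2686 with Dvl2 on the other strand. Counts of both may include reads of the neighbour.

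The spread between mice also differed by member. Acad9, a dehydrogenase that also assembles respiratory complex I, varied least, with a coefficient of variation of 4.34% and a 1.19-fold range from 42.2 to 50.1 CPM. Ppara varied most with 35.7% (3.80-fold), followed by Cpt2 with 31.5% (2.74-fold), Acaa2 with 27.5% (2.58-fold) and Etfb with 27.2% (2.67-fold). In 31 of 38 members the highest and the lowest mouse differed by less than 2-fold, and 15 had a coefficient of variation under 10%. Extremes gathered in few mice. The hAPOE4 female S166, which had the highest Ttr, was the highest of 20 mice for 14 members, and the hAPOE3 female S146, which had the lowest Ttr, was the lowest for 11 members. The hAPOE3 male S158 (Ttr 3161 CPM) was the highest for 8 members and the hAPOE4 male S176 (Ttr 2570 CPM) for 5. Both had the highest Ttr of their group. Not every extreme followed Ttr, as the hAPOE3 female S147 (Ttr 2531 CPM) was the lowest for 5 members. The share of all genes with an extreme in these mice is not given.

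The first comparison was hAPOE4 against hAPOE3 in females. No member passed the threshold: 0 of 38 had an adjusted p under 0.05 in edgeR's quasi-likelihood test, against 0.667% of all genes, and DESeq2 called 0 as well. At an unadjusted p under 0.05 were 4 members, against 10.1% of all genes, and all 4 were higher in hAPOE4 females. Of the 38 members 31 had a higher and 7 a lower mean in hAPOE4 females, with a median log2 fold change of 0.09. The medians over all genes tested lay between -0.0086 and 0.0030 in the 7 comparisons. The higher side held all 8 acyl-CoA dehydrogenases (median 0.09), all 6 hydratases, hydroxyacyl-CoA dehydrogenases and thiolases (median 0.17) and all 3 genes of the electron transfer flavoprotein (median 0.11). These genes move together between mice. The mean log2 CPM of the members, each centred, was 0.08, 0.12 and 0.24 in S164 to S166, the hAPOE4 females with the most Ttr. It was -0.06 and -0.08 in S167 and S168, within the hAPOE3 female range of -0.19 to 0.04. With Ttr as a covariate the median log2 fold change was 0.09.

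Hadha, the α subunit of the trifunctional protein that carries out the last steps for long chains, was the member whose groups did not overlap. It had 67.9, 84.6, 86.8, 64.4 and 67.9 CPM in hAPOE4 females and 62.8, 60.0, 55.0, 63.1 and 61.6 CPM in hAPOE3 females. The 5 hAPOE4 values all lay above the 5 hAPOE3 values, with S165 and S166 well above the other 3. The log2 fold change was 0.30 ± 0.10 (SE, edgeR adjusted p = 0.243). Groups without overlap were found for 1 of 38 members here, against 3.27% of all genes. S165 and S166 were also the mice with the highest Ttr, and the same comparison with Ttr as a covariate is given further on.

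Acad11, a dehydrogenase of long-chain acyl-CoA that is prominent in brain, had 25.3, 29.8, 31.3, 26.0 and 24.6 CPM in hAPOE4 females and 23.6, 25.9, 21.7, 22.7 and 22.9 CPM in hAPOE3 females. The groups overlapped through the hAPOE3 female S145, and the log2 fold change was 0.23 ± 0.08 (adjusted p = 0.236). With the factors of the deposited normalized table as offsets it was 0.07 (adjusted p = 0.878). Hsd17b4, the peroxisomal bifunctional enzyme for very long and branched chains, had 52.8, 60.2, 62.3, 53.9 and 54.0 CPM in hAPOE4 and 54.4, 49.5, 47.3, 44.6 and 47.5 CPM in hAPOE3 females. Only the hAPOE3 female S144 reached into the hAPOE4 range, and the log2 fold change was 0.22 ± 0.07 (adjusted p = 0.241). Acsl1, a long-chain acyl-CoA synthetase that feeds oxidation in muscle and liver, had 47.5, 52.3, 57.8, 46.2 and 49.5 CPM in hAPOE4 and 48.5, 44.0, 43.7, 41.0 and 42.0 CPM in hAPOE3 females. Again 1 hAPOE3 female, S144, overlapped the hAPOE4 group, and the log2 fold change was 0.21 ± 0.07 (adjusted p = 0.283).

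**Figure D2:**
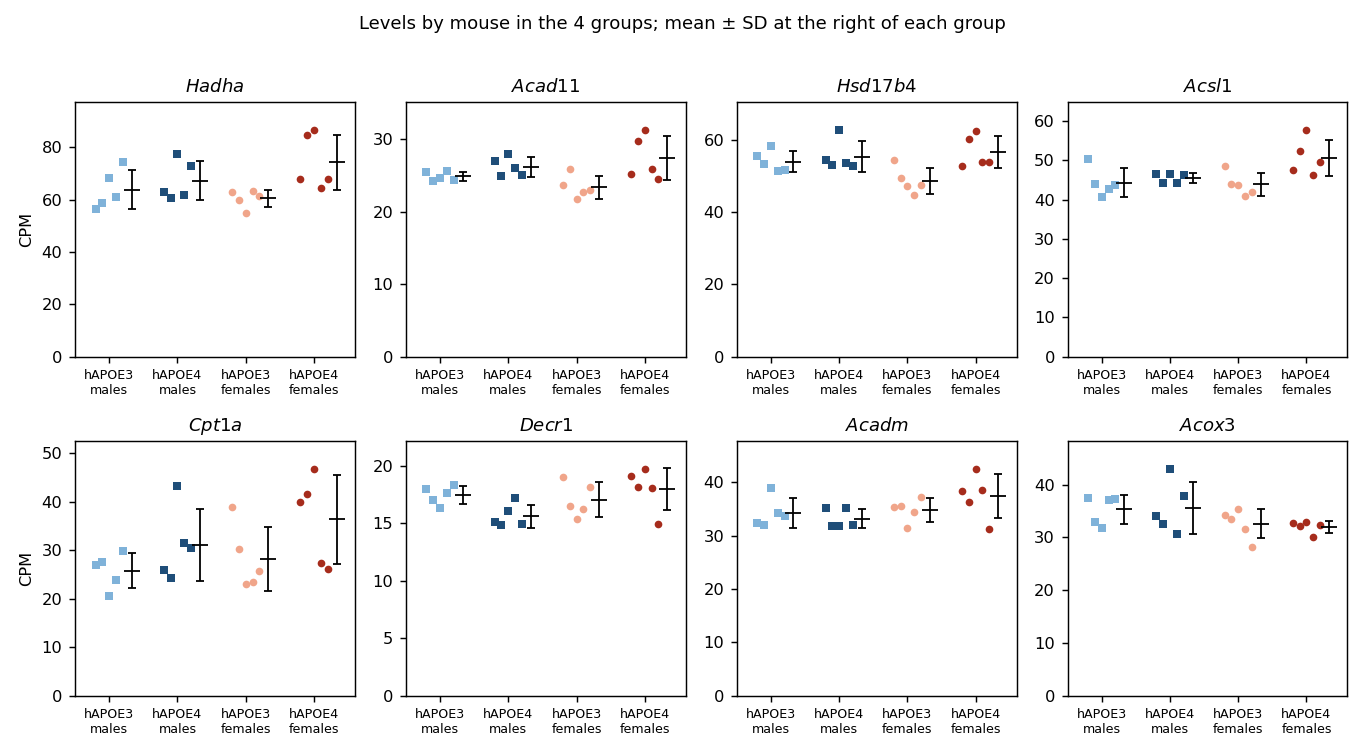
CPM of 8 genes in each mouse, by group, with a linear axis from 0 and the mean ± SD (n = 5) beside each group. Hadha in hAPOE4 females runs from 64.4 to 86.8 CPM and in hAPOE3 females from 55.0 to 63.1 CPM, and the groups overlap in the other panels.

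The steps around the carnitine shuttle differed less evenly. Cpt2 had the highest log2 fold change of any member in females, 0.43 ± 0.26, with 8.52, 8.92, 10.4, 5.69 and 5.14 CPM in hAPOE4 and 7.15, 5.33, 3.88, 6.56 and 5.82 CPM in hAPOE3 females. The 3 hAPOE4 females with high Cpt2 were the 3 with the highest Ttr, and the other 2 lay within the hAPOE3 range (adjusted p = 0.621). Cpt1a differed by 0.37 ± 0.18 (adjusted p = 0.522) and split the hAPOE4 females in the same way, with 39.9, 41.6 and 46.8 CPM in those 3 mice and 27.4 and 26.2 CPM in the others. Slc22a5, Slc25a20, Cpt1c, Crat and Crot had log2 fold changes between -0.03 and 0.01, with standard errors between 0.09 and 0.15.

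In males hAPOE4 was compared with hAPOE3 in the same way. Again 0 of 38 members passed the threshold, against 0.621% of all genes, and 0 had an unadjusted p under 0.05, against 9.06% of all genes. DESeq2 also called 0. The means were higher in hAPOE4 males for 17 members and lower for 21, with a median log2 fold change of -0.04. All 4 auxiliary isomerases and reductases, which prepare unsaturated chains for oxidation, had lower means, with log2 fold changes between -0.16 and -0.12. No member's groups were free of overlap, against 1.44% of all genes.

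The members with the smallest p in males were Ehhadh, Decr1 and Ppara. Ehhadh had 3.44, 3.46, 3.601, 3.27 and 3.22 CPM in hAPOE4 and 4.53, 3.13, 3.68, 4.95 and 4.47 CPM in hAPOE3 males, where 4 mice stood above the hAPOE4 range and 1 below it (log2 fold change -0.29 ± 0.14, adjusted p = 0.553). Decr1, the mitochondrial dienoyl-CoA reductase, had 15.1, 14.8, 16.1, 17.2 and 14.9 CPM in hAPOE4 and 17.97, 17.04, 16.4, 17.6 and 18.4 CPM in hAPOE3 males, with only the hAPOE4 male S177 inside the hAPOE3 range (-0.16 ± 0.09, adjusted p = 0.570). Ppara had 2.74, 2.13, 4.003, 2.65 and 1.41 CPM in hAPOE4 and 2.09, 2.71, 1.42, 1.34 and 1.55 CPM in hAPOE3 males, with wide overlap (0.51 ± 0.31, adjusted p = 0.606).

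Averaged over the sexes, 0 of 38 members differed between hAPOE4 and hAPOE3 past the threshold, against 2.45% of all genes, and DESeq2 called 0. At an unadjusted p under 0.05 were 5 members, against 17.9% of all genes. These were Acad11 (log2 fold change 0.15 ± 0.05, adjusted p = 0.146, the smallest of the 266 member tests), Hadha (0.19 ± 0.07, adjusted p = 0.172), Cpt1a (0.32 ± 0.13, adjusted p = 0.202), Hsd17b4 (0.13 ± 0.05, adjusted p = 0.207) and Acsl1 (0.12 ± 0.05, adjusted p = 0.216). With the deposited factors as offsets the averaged difference of Acad11 was 0.0098 (adjusted p = 0.958), and with Ttr and the oxidative phosphorylation score described below as covariates that of Cpt1a was 0.17 (adjusted p = 0.143). Cpt1a had 38.8, 30.3, 23.1, 23.4 and 25.6 CPM in hAPOE3 females and 27.0, 27.6, 20.6, 23.8 and 29.8 CPM in hAPOE3 males. It had 25.9, 24.2, 43.2, 31.5 and 30.4 CPM in hAPOE4 males. In each sex the highest hAPOE4 value was in the mouse with the highest Ttr of its group. The lower hAPOE4 values lay among those of hAPOE3 females, and in males 2 of them (31.5 and 30.4 CPM) lay just above the hAPOE3 range.

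Females were then compared with males of the same genotype. In hAPOE3 mice 0 of 38 members passed the threshold, against 0.0414% of all genes, 0 had an unadjusted p under 0.05, against 5.22% of all genes, and DESeq2 called 0. The means were lower in females for 25 members and higher for 13 (median log2 fold change -0.07). Lower means were found for all 6 hydratases, hydroxyacyl-CoA dehydrogenases and thiolases and all 4 members grouped as peroxisomal. The smallest p belonged to Hsd17b4 (-0.15 ± 0.07), the hydratase Echs1 (-0.15 ± 0.08) and Ppargc1a, a coactivator of mitochondrial genes (0.28 ± 0.16), each with an adjusted p of 0.805. No member's groups were free of overlap, against 0.723% of all genes.

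In hAPOE4 mice 0 of 38 members passed the threshold between the sexes, against 0.437% of all genes, and DESeq2 called 0. An unadjusted p under 0.05 was found for 3 members, against 5.8% of all genes, and all 3 were higher in females. The means were higher in females for 28 members and lower for 10 (median log2 fold change 0.07). Decr1 had 19.1, 18.1, 19.7, 18.02 and 14.96 CPM in females against the male values given above, with 4 of 5 females above every male (0.20 ± 0.09, adjusted p = 0.711), and the difference was 0.12 with the other choroid plexus markers as a covariate (adjusted p = 0.725). Acadm, the medium-chain dehydrogenase, had 38.3, 36.3, 42.6, 38.6 and 31.2 CPM in females and 35.1, 31.9, 31.8, 35.2 and 31.9 CPM in males, and here too 4 of 5 females stood above every male (0.17 ± 0.08, adjusted p = 0.850), and the difference was 0.08 with the deposited factors as offsets (adjusted p = 1.00). In both genes the remaining female was S168, the hAPOE4 female with the lowest Ttr. Acsl1 differed by 0.15 ± 0.07 (adjusted p = 0.860). The groups overlapped for all 38 members, whereas 0.723% of all genes were free of overlap.

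**Figure D3:**
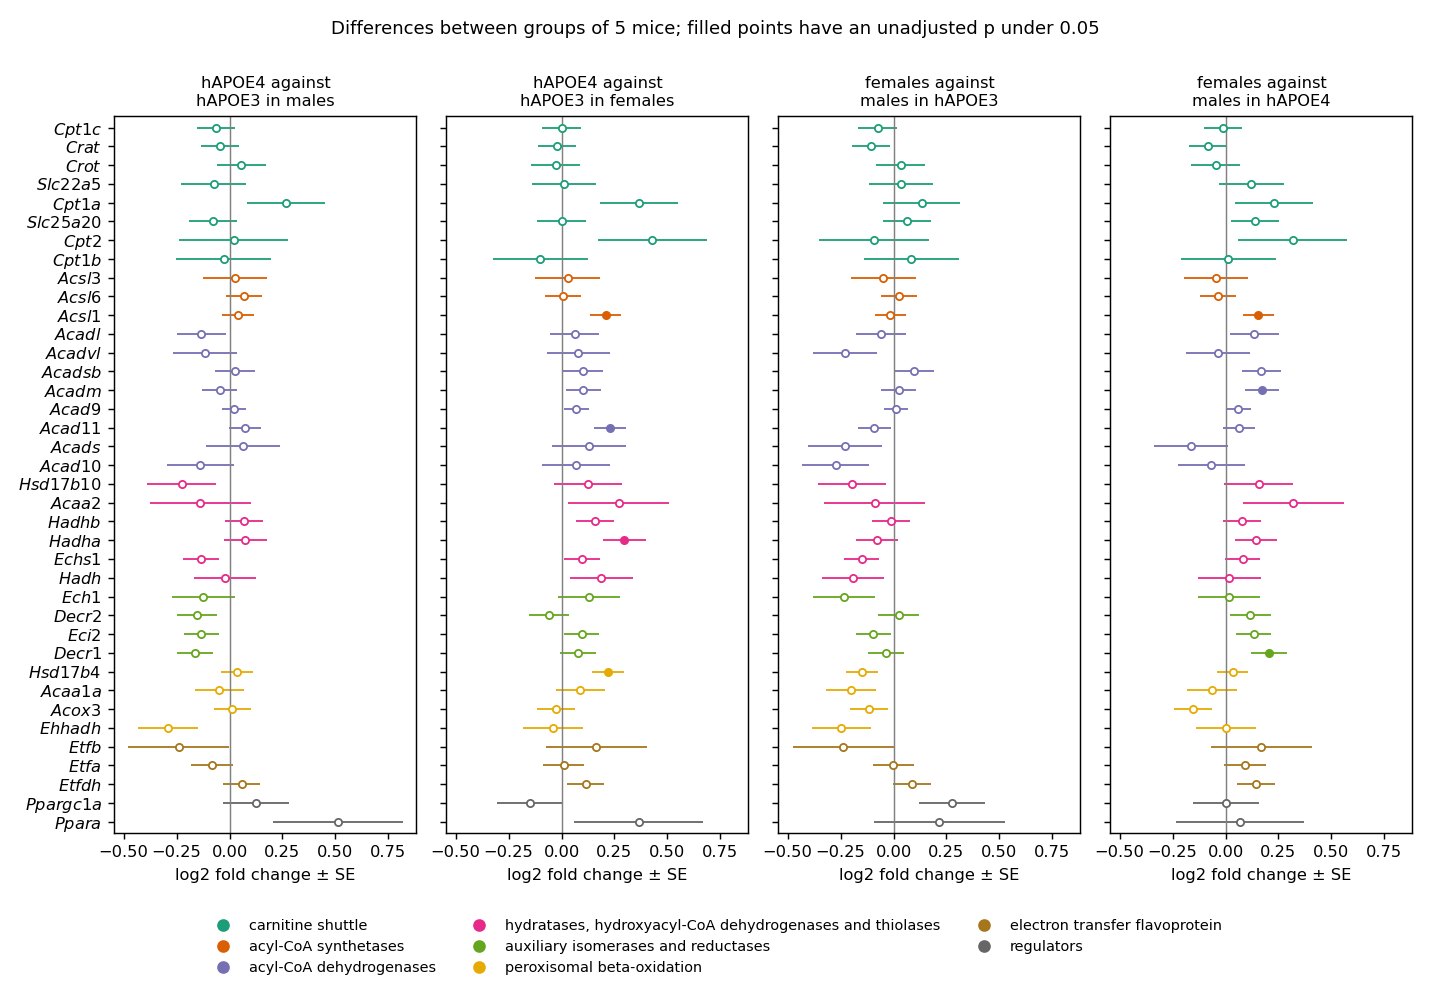
Log2 fold change ± SE of each of 38 genes in the 4 comparisons of 5 against 5 mice, coloured by role, with filled points for an unadjusted p under 0.05. Of the 38 points 31 lie above 0 for hAPOE4 against hAPOE3 in females and 17 in males, and 7 points in the 4 panels are filled.

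Averaged over the genotypes, 0 of 38 members differed between the sexes past the threshold, against 0.129% of all genes, and DESeq2 called 0. An unadjusted p under 0.05 was found for 1 member, against 10% of all genes. This was Acox3, a peroxisomal oxidase of branched chains, which was lower in females (-0.13 ± 0.06, adjusted p = 0.487), with 32.6 ± 2.77 and 32.0 ± 1.16 CPM (SD, n = 5) in hAPOE3 and hAPOE4 females and 35.3 ± 2.72 and 35.6 ± 4.91 CPM in males. Acadsb (0.13 ± 0.07, adjusted p = 0.520) and Etfdh (0.12 ± 0.06, adjusted p = 0.553) came next and were higher in females.

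The interaction asked whether the effect of hAPOE4 differed between the sexes. For 0 of 38 members did it pass the threshold, against 0.184% of all genes, 0 had an unadjusted p under 0.05, against 2.54% of all genes, and DESeq2 called 0. The estimates were above 0 for 32 members, that is, the hAPOE4 effect was higher in females than in males, with a median of 0.12 log2 units. They were above 0 for all 8 dehydrogenases, all 6 hydratases, hydroxyacyl-CoA dehydrogenases and thiolases, all 4 auxiliary enzymes and all 3 genes of the electron transfer flavoprotein. The smallest p belonged to Decr1 (0.24 ± 0.12), Echs1 (0.23 ± 0.12) and Eci2 (0.23 ± 0.12), each with an adjusted p of 1.00. The standard error of a comparison of 5 against 5 mice was between 0.06 and 0.31 log2 units over the members, with a median of 0.12, and that limits which differences this number of mice could show.

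Ttr was then taken as a measure of its own. In a fit with one mean per group and log2 Ttr as a covariate, 14 of 38 members had a slope past the threshold and all 14 were positive, against 13.1% of all genes with a slope in either direction and 7.09% with a positive one. The median slope was 0.03 log2 units per doubling of Ttr over the members and 0.0014 over all genes. Ttr ranged over 7.30 log2 units. The 20 mice share their libraries between the 2 sides of this relation, and whether choroid plexus tissue accounts for the slopes was not tested.

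The carnitine shuttle held 5 of the 14: Cpt2 (slope 0.14 ± 0.02, adjusted p = 2.69e-04), Slc22a5 (0.09 ± 0.01, adjusted p = 5.63e-05), Cpt1b (0.10 ± 0.02, adjusted p = 0.0117), Cpt1a (0.07 ± 0.02, adjusted p = 0.0296) and Slc25a20 (0.04 ± 0.01, adjusted p = 0.0427). The slope of Cpt2 amounted to a 2.02-fold difference over the whole Ttr range and that of Slc22a5 to 1.54-fold. Slc22a5 had 19.0, 15.2, 12.9, 18.8 and 21.8 CPM in hAPOE3 females, in the order of the Ttr values above, and 18.6, 20.1, 20.8, 15.5 and 13.5 CPM in hAPOE4 females. It had 15.9, 14.8, 13.9, 19.4 and 21.7 CPM in hAPOE3 males and 14.5, 15.2, 18.5, 15.3 and 17.9 CPM in hAPOE4 males. The 9 mice with the most Ttr had at least 18.5 CPM of Slc22a5 each, and the other 11 at most 17.9 CPM. Cpt1c, Crat and Crot of the same shuttle did not pass, with slopes of -0.02, 0.02 and -0.03.

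Within the matrix the thiolase Acaa2 had the smallest p (slope 0.13 ± 0.02, adjusted p = 5.44e-05). It had 22.6, 15.6, 14.0, 22.8 and 24.9 CPM in hAPOE3 females and 25.9, 29.3, 31.9, 15.9 and 17.7 CPM in hAPOE4 females. Males had 12.3, 16.6, 21.2, 26.0 and 30.2 CPM with hAPOE3 and 16.6, 16.4, 24.5, 15.2 and 24.1 CPM with hAPOE4. The fitted difference over the Ttr range was 1.96-fold, and in each group the mouse with the highest Ttr had the highest Acaa2. Hadh, the hydroxyacyl-CoA dehydrogenase for short and medium chains, followed with 0.08 ± 0.01 (adjusted p = 2.18e-04, 1.49-fold over the range). Hadha passed as well (0.04 ± 0.01, adjusted p = 0.0216, 1.23-fold), whereas Hadhb, its partner subunit encoded head to head with it on chromosome 5, had a slope of 0.01 ± 0.01 (adjusted p = 0.477).

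**Figure D4:**
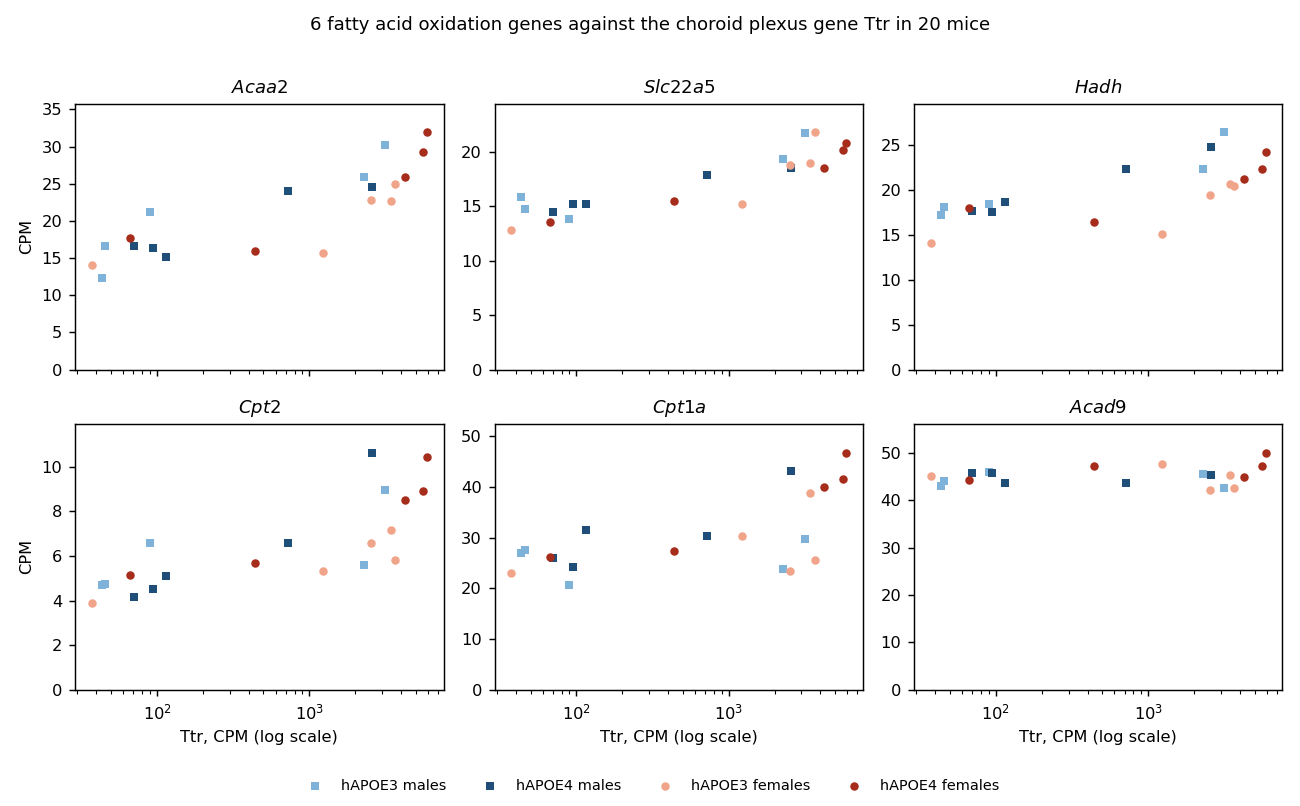
CPM of 6 genes (linear axis from 0) against CPM of Ttr (log axis) in the 20 mice, with squares for males and circles for females, pale for hAPOE3 and dark for hAPOE4. The fitted difference over the Ttr range is 1.96-fold for Acaa2, 1.54-fold for Slc22a5, 1.49-fold for Hadh, 2.02-fold for Cpt2 and 1.45-fold for Cpt1a, and 1.01-fold for Acad9.

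Among the dehydrogenases the long-chain enzymes Acadvl (0.07 ± 0.01, adjusted p = 0.00524) and Acadl (0.06 ± 0.01, adjusted p = 0.00622) passed, with 1.42-fold and 1.32-fold differences over the Ttr range, and Acad10 passed with 0.06 ± 0.02 (adjusted p = 0.0420). Acads had a similar slope that did not pass (0.06 ± 0.02, adjusted p = 0.0586). Acadm, Acad9, Acad11 and Acadsb did not pass either, with slopes between -0.02 and 0.02. Etfb (0.10 ± 0.03, adjusted p = 0.0142), Ech1 (0.05 ± 0.02, adjusted p = 0.0451) and Eci2 (0.03 ± 0.01, adjusted p = 0.0468) made up the 14. Neither regulator, none of the 3 synthetases and none of the 4 members grouped as peroxisomal (Acox3, Ehhadh, Hsd17b4 and Acaa1a) passed. Of 18 other genes of peroxisomal oxidation and import, 3 passed with positive slopes (Acox2, Cat and Phyh), against 7.09% of all genes. Acad9 (0.0013 ± 0.0086) and Etfdh (0.0010 ± 0.013) had slopes close to 0.

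Of the 14 members, 6 stayed past the threshold under each of 26 alternatives: Cpt2, Slc22a5, Acadvl, Acadl, Hadh and Acaa2. Leaving out the hAPOE3 male S158, which had the highest oligodendrocyte marker sum, left 6 of the 14, and leaving out the hAPOE4 male S174 left 9. The share of all genes is not given for these 2 omissions, so the falls are not read as particular to the members. Without S146 and S154, the 2 mice farthest from the median of Ttr, 8 members passed, all of them among the 14, against 8.55% of all genes under that setting. With a score of the 14 other choroid plexus markers in place of Ttr, 9 members passed, all among the 14, against 7.02% of all genes. Slc25a20, Acad10, Eci2 and Ech1 lost their call under all 4 of these settings.

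The group comparisons were also fitted with Ttr as a covariate. No member passed the threshold in any of the 7 comparisons, against 4.56% of all genes that did in at least 1, and 21 of 38 members had an unadjusted p under 0.05 in at least 1, against 44.3% of all genes. Hadha in females kept a difference of 0.28 ± 0.08 between hAPOE4 and hAPOE3 (adjusted p = 0.116), and Acad11, Hsd17b4 and Acsl1 stayed at 0.22, 0.22 and 0.21. Cpt2 went from 0.43 to 0.37 ± 0.15 (adjusted p = 0.306). The largest shifts of the 7 medians were between the sexes: the median of the members in hAPOE3 mice moved from -0.07 to -0.13, and averaged over the genotypes it turned from 0.03 to -0.05. In hAPOE3 mice 29 of 38 members then had a lower mean in females and 14 had an unadjusted p under 0.05, against 0 without Ttr. Averaged over the genotypes 9 had one, against 1 without Ttr. The share of all genes is not given for either of these comparisons with Ttr, so the counts are not read as particular to the members. Hadh had the smallest adjusted p of a member averaged over the genotypes with Ttr as a covariate (adjusted p = 0.0603). Its difference between females and males was -0.25 ± 0.06, against -0.09 without Ttr.

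A second axis ran through the mice. A score of 60 nuclear genes of oxidative phosphorylation, the mean log2 CPM after centring each gene, was highest in 5 hAPOE3 mice, the females S147 (0.27) and S148 (0.34) and the males S156 (0.41), S157 (0.39) and S158 (0.37). The other 15 mice lay between -0.31 and 0.05. Their astrocyte markers summed to between 3022 and 3696 CPM, against 4489 to 5218 CPM in the other hAPOE3 mice and 3606 to 4881 CPM in hAPOE4 mice. What sets these 5 mice apart was not tested, nor was the part of astrocyte content, and the labels give no batch. The slope on this score, chosen after seeing the data, passed the threshold for 13 of 38 members, against 27.5% of all genes. None of the 60 genes is a member.

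Of the 13 members, 8 had positive slopes: Hsd17b10, Etfb, Ech1, Echs1, Slc25a20, Eci2, Acaa2 and Etfa. Etfa lost its call under 14 and Acaa2 under 10 of 21 alternatives. Hsd17b10, an X-linked hydroxyacyl-CoA dehydrogenase that is also part of mitochondrial RNase P, had 26.5 and 26.9 CPM in S147 and S148 and 29.2, 28.3 and 28.1 CPM in S156, S157 and S158. The other hAPOE3 mice had between 16.2 and 19.0 CPM and hAPOE4 mice between 19.1 and 28.3 CPM. Its slope was 1.09 ± 0.13 log2 units per unit of the score (adjusted p = 4.96e-06). Etfb had 39.4 and 43.5 CPM in the same females and 34.1, 40.8 and 48.0 CPM in the same males, against 18.01 to 26.5 CPM in the other hAPOE3 mice (slope 1.55 ± 0.22, adjusted p = 4.26e-05).

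The other 5 had negative slopes: Ppargc1a, Ppara, Acsl6, Acsl3 and Acadsb. Ppargc1a had 60.4, 66.7 and 64.4 CPM in the hAPOE3 females S144 to S146 and 39.8 and 44.9 CPM in S147 and S148. In hAPOE3 males it had 52.3 and 60.0 CPM in S154 and S155 and 42.1, 37.7 and 36.2 CPM in the 3 mice with a high score. Its slope was -0.93 ± 0.16 (adjusted p = 2.82e-04). Ppara moved the same way, with 3.56, 2.72 and 1.999 CPM in S144 to S146 against 1.05 and 1.24 CPM in S147 and S148 (slope -1.81 ± 0.37, adjusted p = 0.00111). Within hAPOE3 mice the 2 regulators were thus low where Hsd17b10, Etfb and the oxidative phosphorylation genes were high. The hAPOE4 male S178 was as low, with 36.2 CPM of Ppargc1a and 1.41 CPM of Ppara, at a score of 0.03.

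Called on both Ttr and the score, in separate fits, were 5 members (Acaa2, Etfb, Ech1, Eci2 and Slc25a20), on Ttr alone 9, on the score alone 8 and on neither 16. This split is not given for all genes, of which 13.1% were called on Ttr and 27.5% on the score. It is therefore not read as particular to the members. With both covariates in one fit, 11 members kept or gained a slope on Ttr, 10 of them among the 14, against 9.61% of all genes. In that fit 11 members had a slope past the threshold on the score. The share of all genes is not given for it, and was 27.5% in the fit without Ttr. The slope of Acaa2 on the score was 0.47 with both covariates (adjusted p = 0.0950), against 1.01 from the fit without Ttr. Cpt1a was the 1 member of the 14 with an estimate of opposite sign on the score (-0.50 ± 0.30, adjusted p = 0.231).

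**Figure D5:**
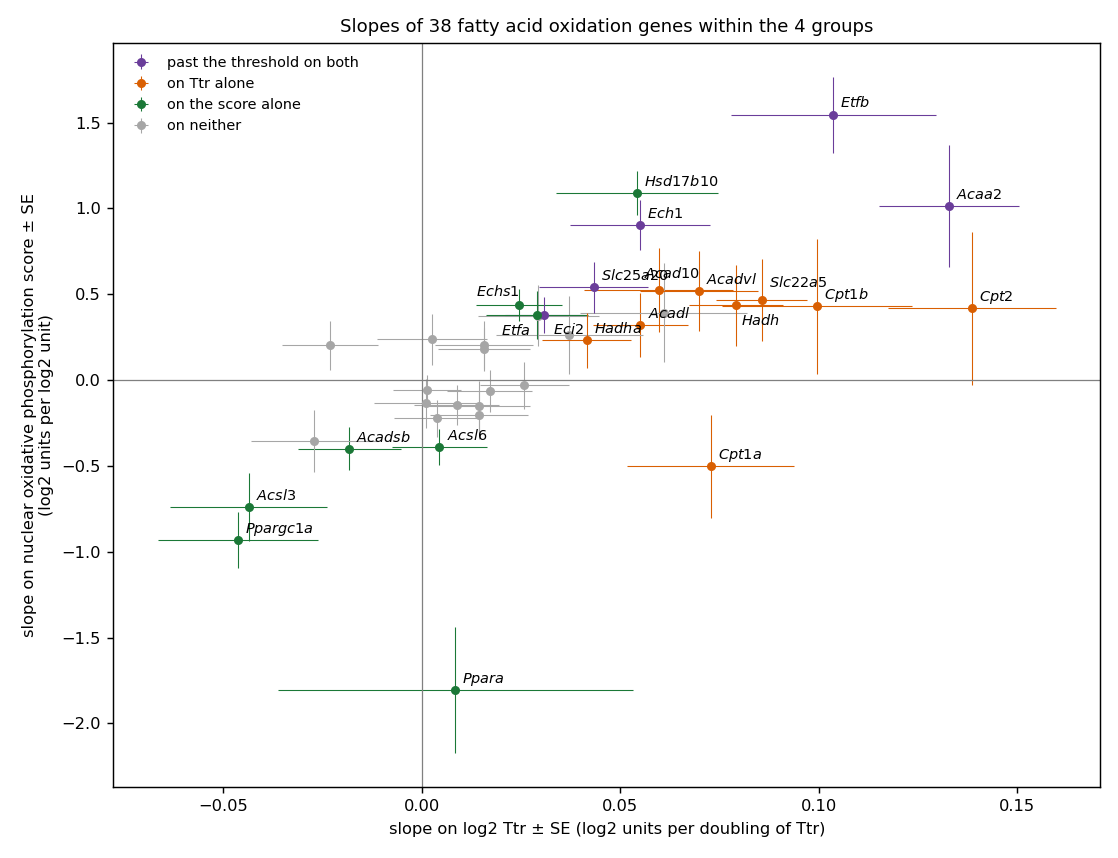
Slope of each of 38 genes on log2 Ttr (x axis, log2 units per doubling) and on the nuclear oxidative phosphorylation score (y axis, log2 units per unit), each ± SE from its own fit within the 4 groups, with colours for the slopes past the threshold. Cpt2 (0.14) and Acaa2 (0.13) lie farthest right, Etfb (1.55) highest and Ppara (-1.81) lowest.

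The rest of the pathway was read from lists of fatty acid activation and transport, carnitine synthesis and uptake, peroxisomal import, other acyl-CoA dehydrogenases and regulators, of which 83 of 84 genes were tested. In 6 of the 7 comparisons 0 of 83 passed the threshold in edgeR, against 0.0414% to 0.667% of all genes. For hAPOE4 against hAPOE3, 7 of the 83 had an unadjusted p under 0.05 in males (9.06% of all genes) and 10 in females (10.1%). Between the sexes 7 had one in hAPOE3 (5.22% of all genes), 5 in hAPOE4 (5.8%) and 14 averaged over the genotypes (10%). In the interaction 1 had one, against 2.54% of all genes. Averaged over the sexes 1 passed, against 2.45% of all genes, and 16 had an unadjusted p under 0.05, against 17.9%. The gene that passed was Pdk4, the kinase that shuts pyruvate out of the citric acid cycle and a PPAR target. It was higher in hAPOE4 mice averaged over the sexes (log2 fold change 0.88 ± 0.18, adjusted p = 0.0124), with 25.0 ± 9.94 CPM in hAPOE4 females against 14.3 ± 3.83 in hAPOE3 females and 27.5 ± 10.2 CPM in hAPOE4 males against 14.4 ± 2.12 in hAPOE3 males (SD, n = 5). Within one sex it did not pass (0.94 ± 0.26 in males, adjusted p = 0.161, and 0.81 ± 0.26 in females, adjusted p = 0.197).

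The other genes with the smallest p in a comparison did not pass the threshold. For hAPOE4 against hAPOE3 they were the fatty acid translocase Cd36 (1.28 ± 0.35 in males, adjusted p = 0.151, at 0.295 to 2.87 CPM) and Pparg (-0.92 ± 0.26 in males, adjusted p = 0.182, and -0.65 ± 0.18 averaged over the sexes, adjusted p = 0.0634), Sirt1 (-0.25 ± 0.09 in females, adjusted p = 0.267) and the thioesterase Acot11 (0.33 ± 0.09 averaged over the sexes, adjusted p = 0.0619). Between females and males of hAPOE3 they were Cd36 (1.33 ± 0.35, adjusted p = 0.616), Slc27a4 (-0.24 ± 0.10) and Rxrb (-0.24 ± 0.10, adjusted p = 0.805 for both), and of hAPOE4 Slc16a9 (0.98 ± 0.39, adjusted p = 0.640) and Acad8 (0.34 ± 0.15, adjusted p = 0.750). Averaged over the genotypes they were Cd36 (0.82 ± 0.24, adjusted p = 0.258), Esrra (-0.25 ± 0.08, adjusted p = 0.316) and Acsbg1 (-0.26 ± 0.09, adjusted p = 0.350). In the interaction they were Cd36 (-1.01 ± 0.48) and Slc25a29 (0.31 ± 0.16), both with an adjusted p of 1.00.

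On Ttr, 14 of the 83 pathway genes had positive slopes past the threshold, against 7.09% of all genes, and 2 had negative ones. Of all 21724 genes, 2853 had a slope past the threshold in either direction, and 1540 of these were positive. The uncoupling protein gene Ucp2 led with 0.15 ± 0.02 (adjusted p = 1.46e-04), followed by the carnitine efflux transporter Slc16a9 (0.21 ± 0.03, adjusted p = 4.10e-04) and the peroxisomal oxidase Acox2 (0.26 ± 0.04, adjusted p = 5.28e-04). Acsl4 (-0.08 ± 0.02, adjusted p = 0.0152) and the corepressor Ncor1 (-0.05 ± 0.02, adjusted p = 0.0235) had the negative slopes. The other genes with positive slopes outside carnitine metabolism were Acad8 (0.07), Ucp3 (0.12), Cat (0.05), Acss3 (0.16), Plin2 (0.09), Pccb (0.05), Phyh (0.03) and Acacb (0.09). Of the 8 genes of carnitine synthesis and uptake, 4 had positive slopes past the threshold, against those 7.09% of all genes: Slc16a9, Aldh9a1 (0.06), Slc22a21 (0.09) and Slc22a4 (0.06). The mouse carnitine transporters Slc22a5, Slc22a4 and Slc22a21 thus all passed on Ttr.

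On the oxidative phosphorylation score 15 of the 83 had positive and 10 negative slopes past the threshold, against 27.5% of all genes in either direction. Positive slopes, between 0.38 and 1.04, were found for Fabp5, Dbi, Acot7, Mcee, Gcdh, Acot13, Pccb, Fabp3, Scp2, Sirt3, Phyh, Pex11a, Mlycd, Nrf1 and Amacr. Negative slopes, between -1.06 and -0.46, were found for Acaca, Acot11, Mut, Prkaa2, Ncor1, Ppargc1b, Abcd2, Rxra, Acsl4 and Prkaa1. Fabp5, a fatty acid binding protein (0.85 ± 0.11), and the acyl-CoA binding protein Dbi (0.86 ± 0.13) had the smallest p, followed by the acetyl-CoA carboxylase Acaca (-0.88 ± 0.13), which makes the malonyl-CoA that inhibits Cpt1.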

How the data were processed

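Hippocampal RNA of 20 mice was measured. PolyA libraries were sequenced from both ends, and the authors quantified mouse cDNA of Ensembl 95 with Salmon 0.91 and imported gene sums through tximport. One deposited table holds these estimated counts, whole and not normalized. Another deposited table holds a normalized signal, the counts divided by DESeq2 factors of each gene and mouse, and served only as an alternative. All columns were matched to mice by name (0 left out). Within groups, counts differed by more than sampling noise in all 40 pairs of mice (lowest chi-square over its degrees of freedom, 10.04).

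The main test was the quasi-likelihood test of edgeR 4.0.16 (R 4.3.3) with TMM factors, filterByExpr by group, 1 mean for each group of mice and Benjamini-Hochberg adjustment over 21724 genes with a threshold of 0.05, which every adjusted p in the text refers to. Standard errors were derived from each F statistic. Slopes came from the same fit with log2 CPM (prior count 2) of Ttr, or a gene score, as a covariate. DESeq2 1.42.0 (Wald test) was an alternative. The script was tested on simulated data. Exon lengths came from GENCODE M21 on GRCm38, which matched 38 members.

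Members and lists were chosen with earlier results of these data known, so no test over the list is given. Named were all members, in each comparison those past the threshold or the 3 with the smallest p, and of other pathway genes those past it and the 3 with the smallest p. Members with an unadjusted p under 0.05, and those beside them in a comparison of levels or slopes, were named in addition. Eci1 is not analysed here, and 1 pathway gene that the rule names is not reported here. Mice were numbered in accession order.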

Additional observations from a re-analysis of the deposited data

Results flagged for a closer look

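In 9 of 152 groups of 5 mice (38 members in 4 groups) 1 mouse lay apart from the other 4 by Dixon's test at the 95% level. Chance flags about 1 in 20 groups, so 9 of 152 is near that rate. The hAPOE3 male S158 was high for Acads (8.01 CPM, the nearest mouse 5.84) and for Acaa1a (94.4 CPM, the nearest 71.5). The hAPOE4 male S176 was high for Acsl6 (273 CPM, the nearest 231) and for Hsd17b4 (62.8 CPM, the nearest 54.3). S158 and S176 are also the 2 mice with the highest oligodendrocyte marker sums, 13604 and 9901 CPM, and the part of those markers in these values was not tested.

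The hAPOE4 male S178 was low for Acadsb (59.7 CPM, the nearest 75.1) and for Ppargc1a (36.2 CPM, the nearest 50.7). The hAPOE3 male S157 was low for Hadhb (68.5 CPM, the nearest 77.7). Cpt1c was high in the hAPOE3 female S147 (138 CPM, the nearest 118) and in the hAPOE4 female S168 (138 CPM, the nearest 118).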

How the results depend on the processing

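Alternatives covered DESeq2's Wald test and size factors, the deposited factors as offsets, no filter on low counts, only the 2 groups compared, covariates (Ttr, the other choroid plexus markers, the oxidative phosphorylation score) and the omission of single mice. The number of members past the threshold stayed at 0 in all 7 group comparisons under every one of these, and no named member's difference with an unadjusted p under 0.05 changed sign. Some shrank by over 1.5 times: with the deposited factors as offsets Acad11 went from 0.23 to 0.07 in females and from 0.15 to 0.0098 averaged over the sexes, and Acadm between the sexes in hAPOE4 from 0.17 to 0.08. With added covariates Decr1 in that comparison went from 0.20 to 0.12 and Cpt1a averaged over the sexes from 0.32 to 0.17. The median log2 fold change over the members crossed 0 in 4 comparisons: in males (from -0.04 to at most 0.01), between the sexes in hAPOE4 (0.07 to -0.0021), for hAPOE4 averaged over the sexes (0.0088 to -0.0089) and between the sexes averaged over the genotypes (0.03 to -0.08). For the slope of member genes on Ttr the count of 14 fell to 8 with the deposited factors as offsets, to 9 with the choroid plexus score without Ttr, and to 8 without the 2 mice farthest from the median of Ttr, an alternative chosen after seeing the data. It ranged from 6 to 15 with each mouse left out, being 6 without hAPOE3 male replicate 5 (S158) and 9 without hAPOE4 male replicate 1 (S174). The share of all genes is not given for the offsets or with single mice left out. The slope on the oxidative phosphorylation score and its alternatives were also chosen after seeing the data, and its count of 13 ranged from 10 to 14 with each mouse left out. Of those 13 members, 9 stayed past the threshold under all 21 alternatives, and Etfa, Acaa2, Acadsb and Eci2 did not. The cause of these changes was not tested.

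Leaving out mice above 10 times the median Ttr (9721 CPM) was not run because 0 mice exceeded it. No paired analysis was possible because the labels give no replicate numbers. Members had at least 43 counts in every mouse, so the spread between 5 mice limits the comparisons more than depth does.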
